A study of Mus musculus with 6 samples.

Results

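The enzymes of cholesterol synthesis described here are Hmgcs1, Idi1, Fdps, Fdft1, Sqle, Lss, Cyp51 and Dhcr7, 8 genes of the 18193 that have a probe set of their own in the array's annotation. Every probe set whose listed gene symbol is exactly one of these names was taken, 21 in all, and the brightest of them stands for the gene, that is the one with the highest mean log2 intensity over the 6 arrays. Dorsal root ganglia (DRGs) of cervical, thoracic and lumbar levels were taken at P60 from 3 Meis1cko mice and 3 control mice, and the total RNA of each mouse was put on 1 array. Meis1cko mice carry a floxed Meis1 allele, whose exon encoding part of the homeodomain is removed by Cre under the Nav1.8 promoter. The study describes this Cre as selective for most nociceptive neurons. It also reports that at P60 Meis1 was seen only in a few large neurons and could not be detected in nociceptors. The labels name the other group only as control. The sex of the mice on the arrays and the exact alleles of the control mice are not given in the sources used here. As the RNA is from whole ganglia, fewer cells of a type and less RNA per cell cannot be told apart.

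Cells make cholesterol from acetyl-CoA through mevalonate, the isoprenoid diphosphates and squalene, and the first sterol of the pathway is formed when squalene is oxidized and closed into rings. When sterols in the endoplasmic reticulum are low, the transcription factor SREBP-2 is released and raises the genes of nearly the whole pathway together, usually with the help of the CCAAT-binding factor NF-Y or of Sp1 at the same promoters. In peripheral ganglia, Schwann cells are known for a high demand for cholesterol, which they use for myelin, and satellite glia and neurons also make it.

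The promoters show which sequences of this control lie beside the genes described below. The 250 bases before the annotated start of transcription were available for 5 of the 8 genes, from RefSeq on GRCm38.p6. Both strands were searched for the sterol regulatory element letters TCACNCCA and CACNCCAC, which overlap each other, for the CCAAT box (CCAAT) and for the Sp1 letters GGGCGG. Windows are written 5′ to 3′ on the strand of the gene, with capitals for each match and lower case elsewhere. Hmgcs1 was taken at chr13:119690101-119690350, Idi1 at chr13:8885356-8885605, Lss at chr10:76531355-76531604, Cyp51 on the minus strand at chr5:4104698-4104947 and Dhcr7 at chr7:143829964-143830213.
Hmgcs1: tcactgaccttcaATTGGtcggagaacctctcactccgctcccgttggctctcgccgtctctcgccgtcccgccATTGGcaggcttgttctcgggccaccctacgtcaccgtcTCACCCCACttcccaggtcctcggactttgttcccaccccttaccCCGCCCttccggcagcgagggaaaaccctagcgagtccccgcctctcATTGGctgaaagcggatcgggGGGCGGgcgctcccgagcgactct
Idi1: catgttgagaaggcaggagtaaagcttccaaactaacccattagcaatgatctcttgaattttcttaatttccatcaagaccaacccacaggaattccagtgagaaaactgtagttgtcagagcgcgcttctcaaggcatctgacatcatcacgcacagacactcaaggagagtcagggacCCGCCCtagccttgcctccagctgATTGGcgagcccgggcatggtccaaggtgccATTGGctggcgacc
Lss: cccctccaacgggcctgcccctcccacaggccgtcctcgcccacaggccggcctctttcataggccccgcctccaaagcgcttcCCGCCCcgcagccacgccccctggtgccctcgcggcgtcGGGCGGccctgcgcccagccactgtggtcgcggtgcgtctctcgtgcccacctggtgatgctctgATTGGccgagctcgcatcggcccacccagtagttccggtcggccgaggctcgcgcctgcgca
Cyp51: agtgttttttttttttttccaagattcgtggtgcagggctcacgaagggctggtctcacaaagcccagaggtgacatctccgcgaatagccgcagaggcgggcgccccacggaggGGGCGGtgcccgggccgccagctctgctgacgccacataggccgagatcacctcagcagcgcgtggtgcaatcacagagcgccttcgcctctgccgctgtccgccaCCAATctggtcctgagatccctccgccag
Dhcr7: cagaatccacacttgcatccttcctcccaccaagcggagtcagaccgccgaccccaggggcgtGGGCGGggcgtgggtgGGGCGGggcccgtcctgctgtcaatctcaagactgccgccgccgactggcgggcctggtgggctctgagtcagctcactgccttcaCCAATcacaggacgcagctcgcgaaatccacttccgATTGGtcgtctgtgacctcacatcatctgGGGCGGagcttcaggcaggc

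The 5 genes have 7 windows, since Dhcr7 has 3 annotated starts. The CCAAT letters were found in 5 of the 7 windows, where 33.8% of the 32851 promoter windows of the table hold them, and the GGGCGG letters in 6 of the 7, against 32.7%. Each of the 5 genes had at least 1 window with either. The letters TCACNCCA were found only before Hmgcs1 among the 5 genes, between 137 and 130 bases before the start, against 3.67% of all windows. The overlapping letters CACNCCAC were likewise found there, against 5.29%. For Dhcr7 the window of the third start is shown, which was chosen after the matches were seen because it alone of its 3 holds CCAAT. These matches are letters in a window and not binding sites, and an absent match says only that these letters are not in that window.

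The array pair of replicate 3 stood apart from the others. The first principal component, which separates both replicate 3 arrays from the other 4, held 59.2% of the variance, and the Actb controls at the 3′ end of the transcript exceeded those at its 5′ end by 0.42 and 0.44 (log2) on the replicate 3 arrays and by 1.23 to 1.66 on the other 4. The median intensity of an array lay between 62.5 and 65.5. Neuron markers checked the tissue, and the neurofilament gene Nefh lay between 11606 and 13905 on all 6 arrays. Of 8 measured neuron markers, 0 passed the adjusted threshold and 1 was at an unadjusted p under 0.05. This was Scn10a, which encodes Nav1.8, with 752, 696 and 804 in the control mice and 1213, 950 and 993 in the Meis1cko mice (log2 fold change 0.48), while Uchl1 had -0.17 and Stmn2 -0.11. Meis1, the targeted gene, had 110, 144 and 90.2 in the control mice and 66.0, 72.1 and 64.2 in the Meis1cko mice on its brightest probe set, which do not overlap, with a log2 fold change of -0.74 (SE 0.18) that did not pass over all probe sets in limma. Whether that probe set lies in the deleted exon was not checked. Skeletal muscle markers, 6 genes, had a mean log2 level between 5.23 and 8.96 in the control mice and between 5.93 and 7.33 in the Meis1cko mice, and their part in the values below was not tested.

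None of the 8 enzymes differed between Meis1cko and control DRGs at an adjusted p under 0.05 in limma, where 0.0155% of the 45037 probe sets did. At an unadjusted p under 0.05, 0 of the 8 passed as well, against 2.32% of all probe sets, and the smallest p was 0.241. The adjusted p was 0.999975 for each of the 8. The labels number the replicates but do not state that they are pairs. With the replicates paired by number, 0 of the 8 passed either threshold. Of all probe sets 0.0822% passed the adjusted and 6.99% the unadjusted one. None of the 8 separated the genotypes without overlap, where 3.43% of all probe sets did with the Meis1cko mice lower and 3.21% with them higher. The log2 fold changes (Meis1cko minus control) lay between -0.22 and 0.01 with a median of -0.11, beside a median of -0.02 over the 12178 genes whose brightest probe set lies at or above the median intensity. All 8 of the 95% intervals lay between -0.68 and 0.49 on the log2 scale, which leaves room for fold changes from 0.625 to 1.40. In the methods' t-test, at the fold and p that the methods set, 0 of the 8 passed and 0.411% of all probe sets did.

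Hmgcs1 encodes HMG-CoA synthase, which supplies the pathway just before its rate-limiting reductase. Its normalized intensity was 10348, 10848 and 9724 in control replicates 1, 2 and 3 and 9977, 9146 and 8782 in Meis1cko replicates 1, 2 and 3. The control mice were higher by mean, 10307 ± 563 against 9301 ± 613 (SD, n = 3 mice), and the groups overlapped through Meis1cko replicate 1. On the log2 scale the difference was -0.15 (SE 0.12).

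Idi1 encodes the isomerase that interconverts the isoprenoid building blocks. Its intensity was 3521, 3557 and 3731 in the control mice, the narrowest group of the 8 genes with a coefficient of variation of 3.12%, and 4211, 2993 and 3220 in Meis1cko replicates 1, 2 and 3, where it was 18.6%. The Meis1cko mice thus lay on both sides of all control mice, with a log2 fold change of -0.07 (SE 0.15).

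Fdps encodes farnesyl diphosphate synthase, whose product feeds sterols, ubiquinone and protein prenylation. Its intensity was 2988, 2702 and 3922 in the control mice and 2481, 2399 and 3389 in the Meis1cko mice, in the order of the replicates. The replicate 3 mouse was the highest of each genotype, and within each replicate number the Meis1cko mouse was lower, by 0.27, 0.17 and 0.21 on the log2 scale. The log2 fold change came to -0.22 (SE 0.20). With the replicates paired, its unadjusted p was 0.0668, the smallest of the 8, and its adjusted p was 0.739 in limma.

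Fdft1 encodes squalene synthase, the first enzyme committed to sterols. It had intensities of 6678, 6472 and 5713 in the control mice and of 6540, 6391 and 5464 in the Meis1cko mice. On this probe set both replicate 3 mice were the lowest of their genotype, the opposite of Fdps. The genotypes differed by -0.04 (log2, SE 0.13), and the 95% interval ran from -0.34 to 0.27.

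**Figure D1:**
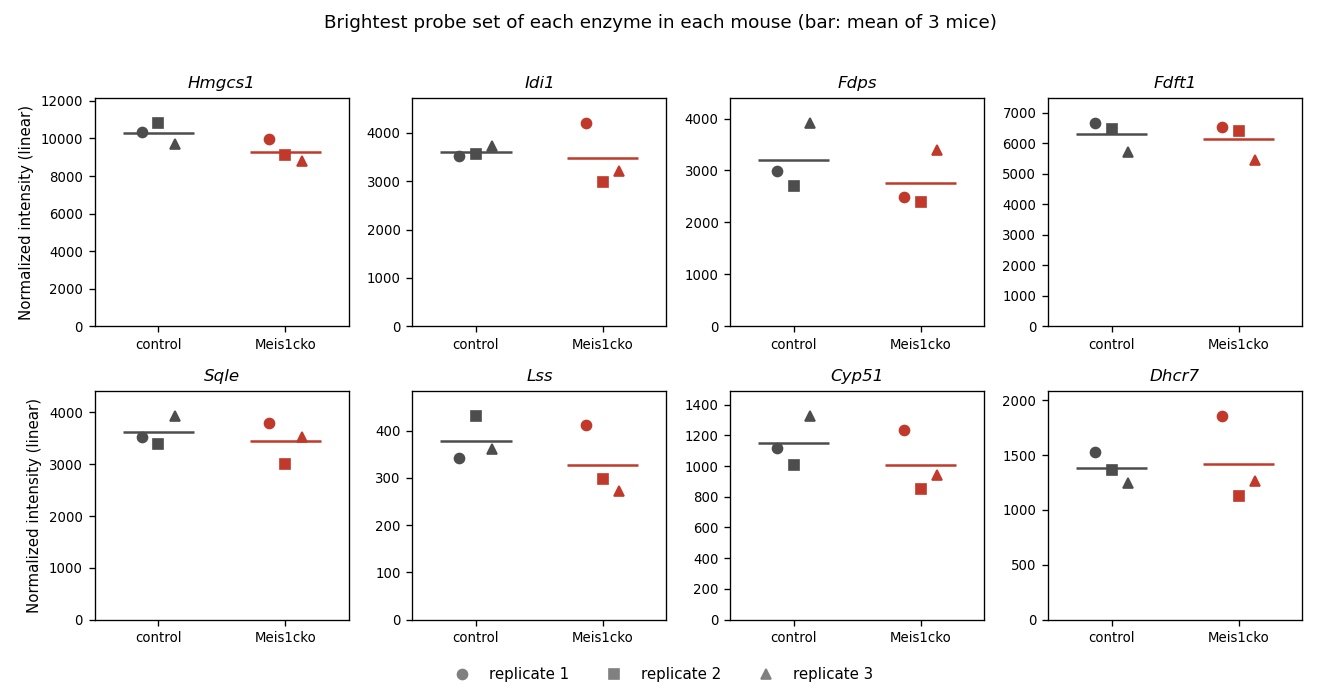
Normalized intensity (linear scale, from 0) of the brightest probe set of the 8 enzymes in each mouse, control in grey and Meis1cko in red, with a symbol per replicate number and a bar at the mean of 3 mice. The groups overlap for all 8 genes, and the lowest mouse is a Meis1cko mouse in every panel, replicate 2 in 5 panels and replicate 3 in 3.

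Sqle encodes squalene epoxidase, a further controlled step of the pathway. Its intensity was 3522, 3387 and 3938 in the control mice and 3788, 3010 and 3535 in the Meis1cko mice, and the difference was -0.07 on the log2 scale (SE 0.14). Only Meis1cko replicate 2 lay below all control mice.

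Lss encodes lanosterol synthase, which closes the sterol rings. Control mice had 342, 432 and 361 and Meis1cko mice 413, 299 and 272, so that Meis1cko replicates 2 and 3 lay below every control mouse and replicate 1 near the top. The log2 fold change of -0.22 (SE 0.19) was the lowest of the 8 and did not pass, with an unadjusted p of 0.267.

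Cyp51 encodes the demethylase of lanosterol. Its intensity was 1117, 1009 and 1328 in the control mice and 1237, 852 and 941 in the Meis1cko mice, and again Meis1cko replicates 2 and 3 alone lay below all control mice. Its log2 fold change was -0.20 (SE 0.18).

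Dhcr7 encodes the reductase that makes cholesterol from its direct precursor. Control mice had 1525, 1368 and 1243 and Meis1cko mice 1859, 1127 and 1268, a coefficient of variation of 10.3% against 27.4%. The highest and the lowest of the 6 values were both Meis1cko mice, replicates 1 and 2, and the log2 fold change was 0.01 (SE 0.20), the only one of the 8 above 0.

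Seen over the 8 genes, the lowest array was a Meis1cko array for 8 of 8, where this holds for 64.7% of the 12178 genes at or above the median intensity. It was Meis1cko replicate 2 for 5 of the 8, against 15.1% of those genes, and Meis1cko replicate 3 for the other 3, against 39.3%. The highest array was a control array for 6 of the 8, against 44.5%. The coefficient of variation was larger among the Meis1cko mice for 8 of 8 genes, although for Fdps by 19.94% against 19.93% only, with a median of 19.3% in them against 9.17% among the control mice. For the 12178 genes it was larger in 64.0%, with medians of 14.1% in the Meis1cko mice and 11.01% in the control mice. These shares describe 3 mice per genotype, and no test was run on them.

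Several genes have probe sets that did not move together across the arrays. Of the 21 probe sets, 15 had a log2 fold change below 0, where 52.9% of all probe sets did, and none passed in limma. The probe set 1420013_s_at of Lss, whose name marks probes shared between transcripts, had intensities of 341, 311 and 251 in the control mice and of 231, 230 and 250 in the Meis1cko mice. The groups did not overlap, but replicate 3 differed only by 250 against 251. Such separation, with the Meis1cko mice lower, is found in 3.43% of all probe sets, and its exact permutation p is 0.1, the smallest that 3 mice against 3 allow. The log2 fold change was -0.33 (95% interval -0.67 to 0.00622).

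**Figure D2:**
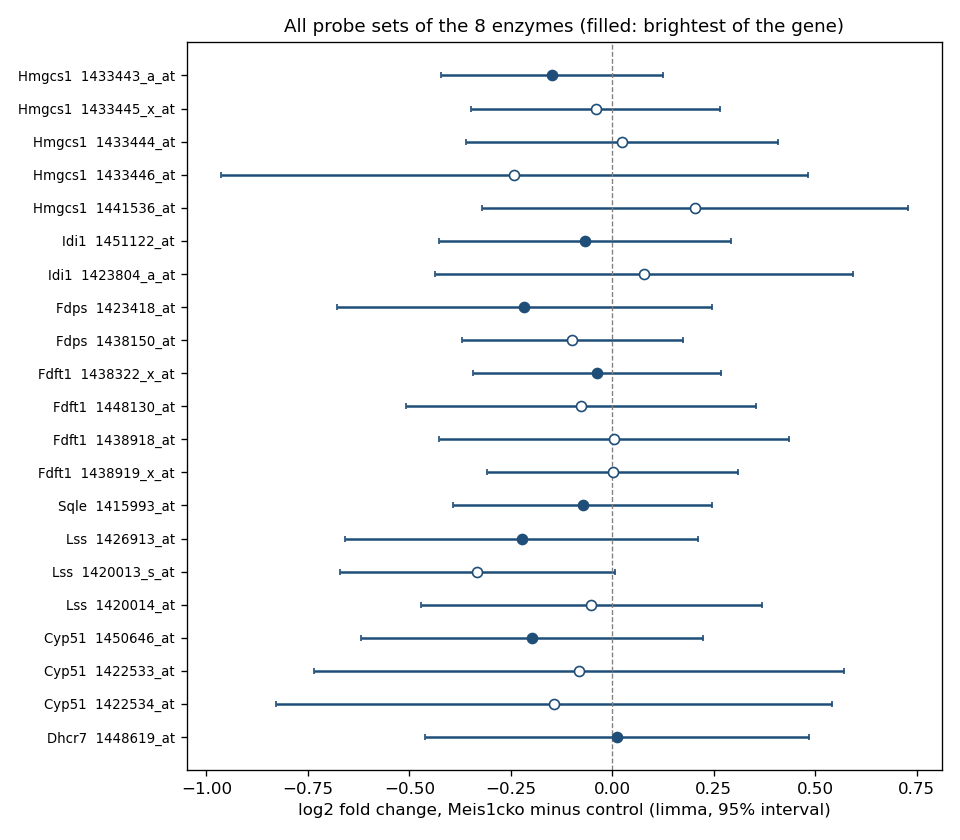
Log2 fold change (Meis1cko minus control) with its 95% interval from limma for all 21 probe sets of the 8 enzymes, filled circles for the brightest of each gene and open circles for the others. Every interval includes 0, and the lowest value is -0.33 for Lss 1420013_s_at.

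The probe sets of Fdft1 and Hmgcs1 ordered the arrays in different ways. The brightest probe set of Fdft1, 1438322_x_at, was lower on the replicate 3 arrays (5464 and 5713) than on the other 4 (6391 to 6678). The next, 1448130_at, was higher on the replicate 3 arrays (3278 and 3381) than on the other 4 (2347 to 2665), and the correlation between both over the 6 arrays was r = -0.88 (across 6 arrays, as a description). After the mean of each replicate number was subtracted, it was 0.72. That leaves only the 3 differences between genotypes within a number, so a shared direction of these raises r. For Hmgcs1, the probe set 1433446_at had 4316 and 5399 on the replicate 3 arrays and 2484 to 3016 on the others, a mean difference of 0.83 on the log2 scale, while the brightest, 1433443_a_at, had a difference of -0.12. The brightest and 1433446_at had r = -0.29 as measured and 0.95 after the replicate means were subtracted. The log2 fold changes between genotypes were -0.04 and -0.08 for the pair of Fdft1 and -0.15 and -0.24 for the pair of Hmgcs1. The replicate 3 arrays are also those with the low Actb difference given above, and its part in these values was not tested.

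**Figure D3:**
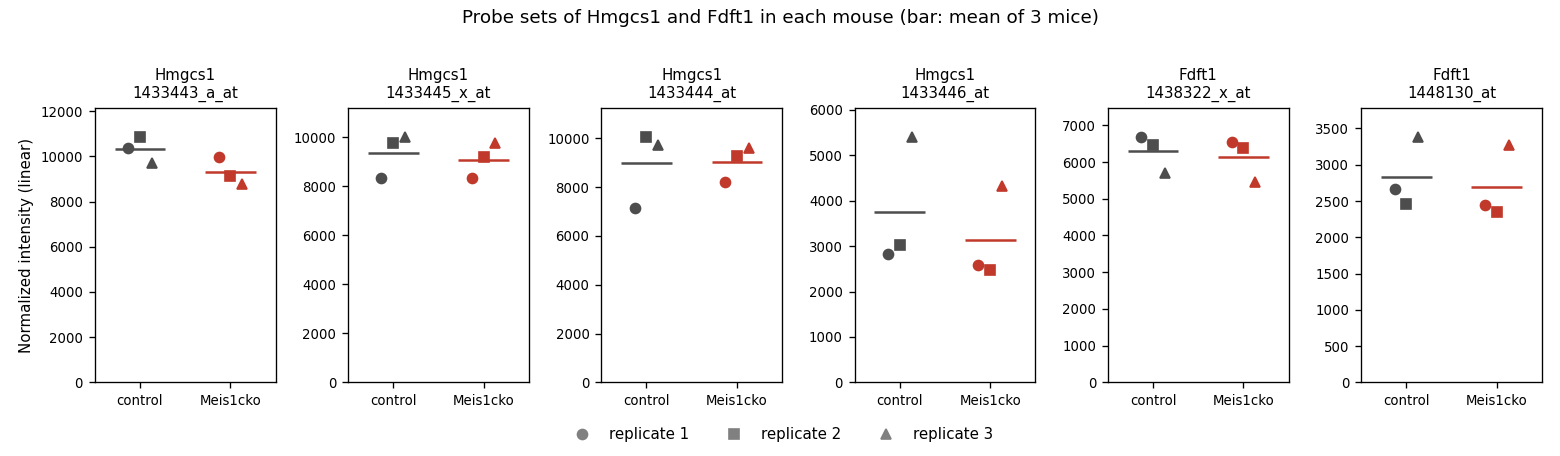
Normalized intensity (linear scale, from 0) of 4 probe sets of Hmgcs1 and 2 of Fdft1 in each control (grey) and Meis1cko (red) mouse, with a symbol per replicate number and a bar at the mean of 3 mice. The replicate 3 mice (triangles) are the lowest of their genotype on 1438322_x_at (5464 and 5713) and the highest on 1448130_at (3278 and 3381), both of Fdft1.

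The dim probe sets lay near or below the lower quartile of the arrays. Fdps 1438150_at lay between 7.90 and 9.47 and Hmgcs1 1441536_at between 12.47 and 23.0, where the 25th percentile of an array lay between 20.8 and 22.6. Both other probe sets of Cyp51 had log2 fold changes of -0.08 and -0.14, and the other of Idi1 had 0.08.

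The 8 enzymes varied together in part. Over the 6 arrays the 28 pairs of genes had a median Pearson r of 0.50 (range -0.76 to 0.92) and a median Spearman rho of 0.49, beside a median r of 0.20 over all pairs of the 12178 genes at or above the median intensity. Of the 28 pairs, 14 had r above 0.5, where 32.7% of all pairs did. Since the replicate 3 arrays stand apart, these values are a description of 6 arrays and no p is given.

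The pairs of enzymes after squalene had higher correlations than the pairs before it. The 6 pairs among Sqle, Lss, Cyp51 and Dhcr7 had a median r of 0.56 and were all above 0.37, with the highest for Sqle and Cyp51 (r = 0.92, rho = 0.83). Among Hmgcs1, Idi1, Fdps and Fdft1 the median r of the 6 pairs was 0.15, and Fdps and Fdft1 had -0.76 (rho = -0.43). Idi1, although it acts before squalene, had r between 0.77 and 0.87 with the 4 later enzymes. Fdps was the least like the others, with 4 of its 7 values of r below 0. No test was run on the difference between the early and the late enzymes. All these values are from the brightest probe sets. The next brightest probe sets of Fdft1 and Hmgcs1 had r of -0.88 and -0.26 with the brightest ones. The difference and the place of Fdps may thus depend on the probe set, which was not checked.

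The values below 0 for Fdps depended on which means were subtracted and which arrays were kept. With genotype means subtracted, the median r of the 28 pairs was 0.52 and 8 pairs were below 0. Of the 7 pairs with Fdps 5 were below 0, the lowest at -0.94 with Fdft1. After the mean of each replicate number was subtracted, only the Meis1cko minus control difference within each number was left, 3 values per gene. An r of this kind keeps the difference between genotypes, so genes lower in all 3 numbers have an r above 0. The median r of the 28 pairs was then 0.73, beside a median of 0.03 over all pairs of the 12178 genes. There were 2 pairs below 0, Fdps with Dhcr7 (-0.23, and -0.29 as measured) and Fdft1 with Dhcr7 (-0.18, and 0.49 as measured). Fdps and Fdft1, both lower in the Meis1cko mouse of each number, then had r = 0.88, Sqle and Lss 0.996 and Idi1 and Sqle 0.97. Without the replicate 3 arrays, over 4 arrays, the median was 0.64 and none of the 28 was below 0. Without the pair of arrays farthest from the median of the first gene of each pair it was 0.62.

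**Figure D4:**
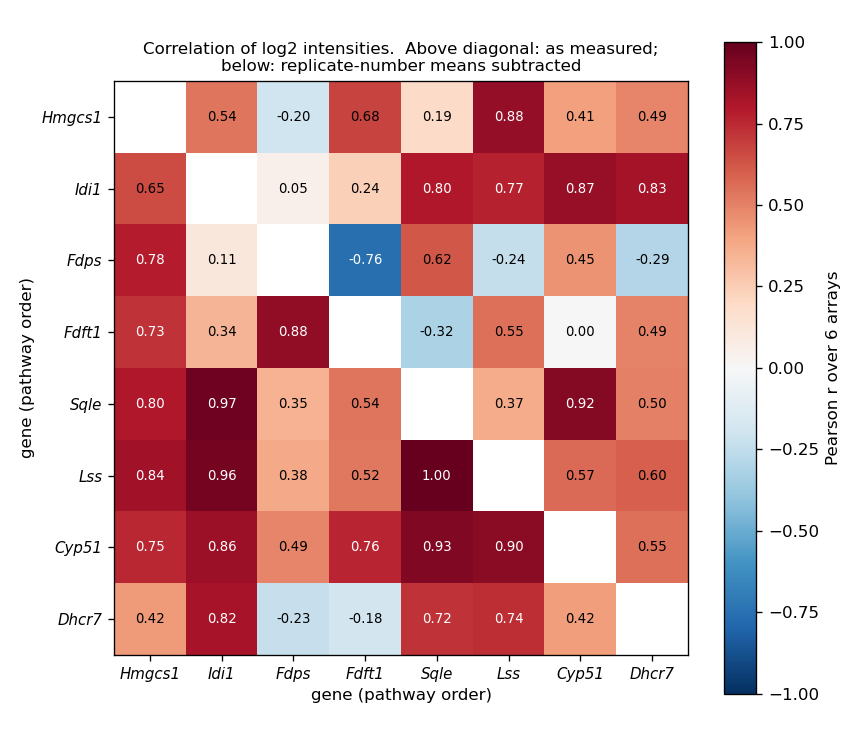
Pearson r of the log2 intensities of the 8 enzymes over 6 arrays, in pathway order on both axes, as measured above the diagonal and with replicate-number means subtracted below it. Fdps has r of -0.76 with Fdft1 above the diagonal and 0.88 below it, while Sqle and Cyp51 have 0.92 and 0.93.

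The rest of the pathway was read from 11 further enzymes with a probe set of their own, of 15 names in the list, which includes an older name of Msmo1. None of them passed the adjusted threshold in limma in either direction or an unadjusted p of 0.05, and all 11 had a log2 fold change below 0, with a median of -0.17. Sc5d, the desaturase of the late pathway, had the smallest p of the 11 (0.172), with intensities of 1997, 1770 and 2726 in the control mice and 1705, 1345 and 2100 in the Meis1cko mice. Its log2 fold change was -0.33 (SE 0.22), the Meis1cko mouse was lower within each replicate number, and with the replicates paired the unadjusted p was 0.0138 and the adjusted p 0.565. Of the early enzymes that phosphorylate and decarboxylate mevalonate, Mvk had -0.21, Pmvk -0.14 and Mvd -0.11. Among the late enzymes, the sterol dehydrogenase gene Hsd17b7 had -0.20, the demethylation enzyme Nsdhl -0.17, the sterol reductase genes Tm7sf2 and Lbr -0.18 each, the isomerase Ebp -0.09 and the oxidase Msmo1 -0.00376. Idi2, a dim second isomerase, had -0.10.

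Over the whole pathway, 18 of the 19 measured enzymes had a log2 fold change below 0, and their median was -0.15. Of the genes at or above the median intensity 55.9% lay below 0. Idi2, counted among the 19 enzymes, lay between 10.7 and 14.9, below that median. The 95% intervals of the 19 enzymes lay between -0.85 and 0.49. The direction of the enzymes was not the same in the 3 pairs of arrays with the same replicate number. In replicate 2 the Meis1cko mouse was lower for 19 of the 19 enzymes, where it was lower for 58.5% of the genes at or above the median intensity. In replicate 3 it was lower for 16 of the 19, against 56.4%. In replicate 1 it was lower for 11 and higher for 8, where 51.2% of those genes were higher. On their brightest probe sets, the 4 members after squalene were all higher in Meis1cko replicate 1. The log2 differences were 0.11 for Sqle, 0.27 for Lss, 0.15 for Cyp51 and 0.29 for Dhcr7. In replicate 2 all 4 were lower, by 0.17, 0.53, 0.24 and 0.28. For 9 of the 19 enzymes the Meis1cko mouse was lower in all 3 pairs, against 19.8% of the genes at or above the median intensity. On the brightest probe sets, Hmgcs1, Fdps and Fdft1 were among them while no member after squalene was. Other probe sets differed. Lss 1420013_s_at was lower in all 3 pairs (-0.56, -0.43 and -0.00682), although the dim Lss 1420014_at had 0.08 in replicate 1. Hmgcs1 1433444_at had 0.20 in replicate 1. The enzymes varied together in part, so these counts are not counts of independent genes, and no test was run on them.

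**Figure D5:**
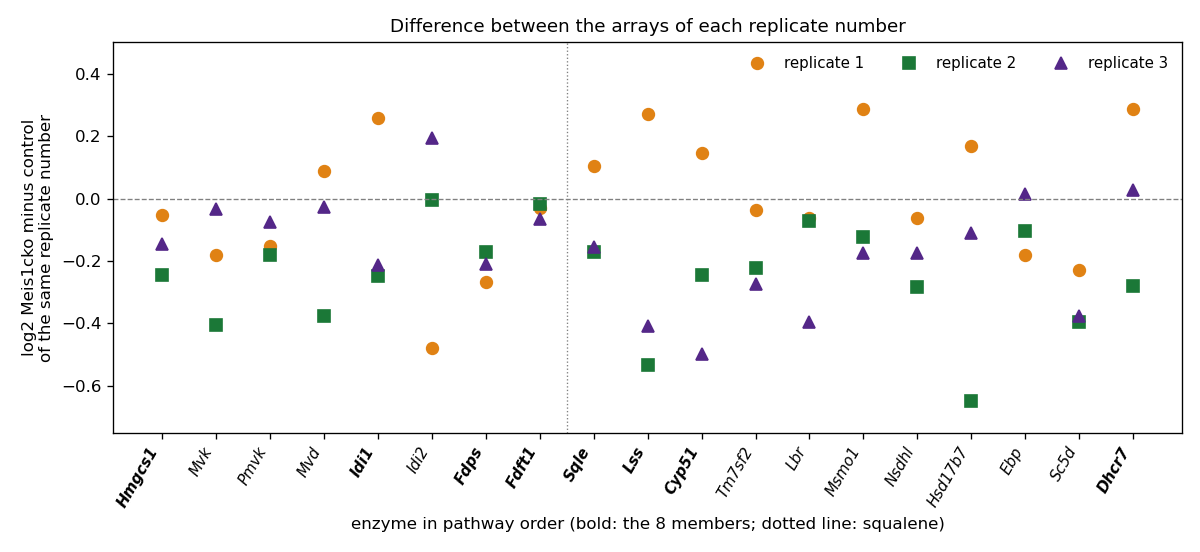
Log2 difference between the Meis1cko and the control array of replicates 1 (circles), 2 (squares) and 3 (triangles) for the 19 measured enzymes in pathway order, with the 8 members in bold and a dotted line at squalene. All 19 squares lie below 0, from -0.65 for Hsd17b7 to -0.00580 for Idi2, and 8 of the 19 circles lie above 0.

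Genes that control the pathway did not pass either. Among 8 measured genes of SREBP control, 0 were higher or lower at an unadjusted p of 0.05, and the median log2 fold change was -0.07. Srebf2, which encodes the SREBP that acts mainly on cholesterol genes, had intensities of 398, 384 and 660 in the control mice and 481, 362 and 585 in the Meis1cko mice. The log2 fold change was 0.00556 (SE 0.26), with the replicate 3 mouse highest in both genotypes as for Fdps. Srebf1 had 1013, 975 and 703 in the control mice and 889, 748 and 609 in the Meis1cko mice, a log2 fold change of -0.26 (SE 0.20). It was lower in each of the 3 pairs, and with the replicates paired it alone of the 8 had an unadjusted p under 0.05, of 0.0412 (adjusted p = 0.696 from limma). The site-1 protease gene Mbtps1 and the escort protein gene Scap had -0.11 each. Insig1, which retains SREBP in the endoplasmic reticulum and is itself raised by it, had 1071, 1170 and 1206 in the control mice and 1296, 855 and 1084 in the Meis1cko mice. Its Meis1cko replicate 1 was the highest and replicate 2 the lowest of the 6, as for Idi1 and Dhcr7, and its log2 fold change was -0.11.

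In uptake, removal and the neighbouring lipid pathways no gene passed the adjusted threshold in limma. Of 7 measured genes of cholesterol uptake and transport, 0 passed and 6 lay below 0, with -0.23 for the lysosomal cholesterol exporter Npc1, -0.21 for the sterol carrier Stard4, -0.17 for Npc2 and 0.23 for the lipoprotein receptor Vldlr. Of 9 measured genes of cholesterol removal, 0 passed and 5 lay above 0, with a median of 0.12. The exporter gene Abca1 had 0.15, the neuronal cholesterol hydroxylase gene Cyp46a1 0.22, the sterol-sensing receptor gene Nr1h3 0.23 and the apolipoprotein gene Apoe -0.15. None of the 9 measured enzymes of the isoprenoid branches passed, with a median of -0.07, and Rabggta had -0.19, Rabggtb -0.12, Fnta -0.09 and Ggps1 0.15. Among 13 measured enzymes of fatty acid synthesis, 0 passed the adjusted threshold and 1 was at an unadjusted p under 0.05. This was the desaturase gene Fads2, with 923, 909 and 897 in the control mice and 820, 707 and 712 in the Meis1cko mice, which do not overlap. Its log2 fold change was -0.29 (SE 0.12, unadjusted p = 0.0410 and adjusted p = 0.999975 from limma), while the carboxylase gene Acacb had 0.27 and the elongase genes Elovl6 and Elovl1 had -0.16 and -0.30. With the replicates paired, Acacb and Elovl1 also had an unadjusted p under 0.05, of 0.0316 and 0.0231.

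Myelin and glia markers were set beside the enzymes because these cells carry much of the cholesterol of the ganglion. Of 10 measured Schwann cell myelin genes, 0 passed over all probe sets and the median log2 fold change was -0.04, with -0.13 for the bright myelin gene Pmp22 -0.06 for Mbp, 0.28 for Drp2 and 0.21 for Ncmap. Pmp2, a fatty acid and cholesterol binding protein of myelin, had 233, 378 and 239 in the control mice and 97.6, 97.7 and 93.6 in the Meis1cko mice. The groups do not overlap, and they differed by -1.52 on the log2 scale (SE 0.20). In limma its adjusted p was 0.185, and 0.0252 with the replicates paired. Ugt8a, which makes the galactolipids of myelin, had 1371, 1136 and 1327 in the control mice and 948, 814 and 888 in the Meis1cko mice. It was lower in each of the 3 pairs without overlap, with a log2 fold change of -0.53 (SE 0.13, unadjusted p = 0.00424 and adjusted p = 0.999975 from limma). The other 4 measured enzymes of myelin lipids had between -0.09 and 0.34, with 0.34 for Aspa, 0.16 for Fa2h and -0.09 for Cers2. Fa2h was higher in the Meis1cko mice without overlap, as were 3.21% of all probe sets. It had 327, 360 and 345 in the control mice and 373, 394 and 381 in the Meis1cko mice. With the replicates paired, Drp2 and Aspa, both higher in the Meis1cko mice, had unadjusted p of 0.0274 and 0.0282. The mean log2 level of the 10 myelin genes lay between 8.84 and 9.08 in the Meis1cko mice and between 9.09 and 9.11 in the control mice. Without Pmp2 the other 9 lay between 9.09 and 9.35 in the Meis1cko mice and between 9.16 and 9.25 in the control mice, which overlap, and the mean of their log2 fold changes was 0.03 in place of -0.12. The part of this level in the values of the enzymes was not tested. Of 7 measured satellite glia markers, 0 passed over all probe sets and the median log2 fold change was -0.03, while the endothelin receptor gene Ednrb had -0.67 and the potassium channel gene Kcnj10 -0.36, both at an unadjusted p under 0.05, and Glul 0.24. Among 7 connective tissue and vessel markers, the matrix gene Lum had 1158, 913 and 1119 in the control mice and 437, 388 and 430 in the Meis1cko mice, and the difference was -1.34 on the log2 scale (SE 0.14). In limma its adjusted p was 0.0686, and 0.00717 with the replicates paired. Acta2, the actin gene of smooth muscle, went the other way without overlap, with 490, 376 and 338 in the control mice and 840, 623 and 576 in the Meis1cko mice (log2 fold change 0.76, SE 0.20, adjusted p = 0.999975 in limma). The collagen genes Col1a2 and Col1a1 had -0.58 and -0.54, and these 4 were the genes of that list at an unadjusted p under 0.05. The 6 fat cell markers had a mean log2 level between 5.16 and 6.24 in the control mice and between 5.46 and 5.94 in the Meis1cko mice. The part of these cells in the values of the enzymes was not tested.

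The genes at or above the median intensity were ranked by likeness to the mean of the 8 standardized enzymes over the 6 arrays. Only the 8 enzymes themselves were left out. The 10 most alike were the receptor phosphatase gene Ptprg, the ion channel gene Asic2, Ppil1, the cytokine signalling inhibitor gene Socs2, Ngly1, Mitd1, Rcan1, Zdhhc24, Adamts8 and Abhd5. Their Pearson r with that mean lay between 0.97 and 0.98, and 0.895% of the 12178 genes had an r above 0.9. With 6 arrays this is a description of likeness only. None of the 10 passed in limma, and their unadjusted p lay between 0.118 and 0.633.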

How the data were processed

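The deposited values are normalized intensity values on a linear scale, which the authors read from Affymetrix mouse genome arrays with the GeneChip Command Console and processed in GeneSpring. How probes were summarised and normalized is not given in the sources used here. All 6 arrays were taken to log2 with no offset, and 64 control probe sets were left out. Symbols were those of the array's annotation table. The genotypes were tested against each other in limma 3.58.1 (lmFit, then eBayes) under R 4.3.3, with Benjamini-Hochberg adjustment over 45037 probe sets. Arrays of the same replicate number deviated from their group means together (correlations of 0.424, 0.535 and 0.766), so the numbers were taken to pair the arrays, and a fit with them as a block was an alternative. The fit was tested on simulated data. The 8 genes, the lists and the motifs were chosen with earlier results of these data known. Genes of a list were named when past the threshold or among the 4 with the smallest p, and all enzymes of the pathway were named, while fat cell and skeletal muscle markers are given by their level only and Srebf2 and Mbp, outside this rule, were added with their values known. The number of arrays limits the precision. Promoters came from RefSeq on GRCm38.p6.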

Additional observations from a re-analysis of the deposited data

How the results depend on the processing

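None of the 8 enzymes passed the adjusted threshold under any of the 15 alternatives, with a smallest adjusted p of 0.739, and 112 of the 120 log2 fold changes kept their direction. Of the 8 that turned, 7 lay between -0.06 and 0.0433, and the other was Dhcr7 at -0.20 without Meis1cko replicate 1. Idi1 had 0.00494 with the mean over probe sets, 0.00444 without both replicate 3 arrays and 0.0317 without Meis1cko replicate 2, where Sqle had 0.0203. Fdft1 had 0.0433 without Meis1cko replicate 3 and 0.00743 without control replicate 1, and Dhcr7 had -0.06 without control replicate 3. With single arrays left out, the ranges were -0.21 to 0.03 for Idi1, -0.15 to 0.02 for Sqle, -0.11 to 0.04 for Fdft1, -0.20 to 0.16 for Dhcr7, -0.37 to -0.06 for Fdps, -0.40 to -0.10 for Lss, -0.35 to -0.08 for Cyp51 and -0.20 to -0.11 for Hmgcs1. The median of the 8, -0.11, was -0.04 without both replicate 3 arrays, -0.06 with the mean over probe sets and between -0.20 and -0.08 with single arrays left out. The median pairwise r of 0.50 was 0.39 with quantile normalization, 0.59 with median centring, 0.29 with the mean over probe sets, 0.64 without both replicate 3 arrays, 0.73 with replicate-number means subtracted (the replicate block) and 0.36 to 0.58 with single arrays left out.

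Over all probe sets, 7 passed in limma, 37 with the replicate block, 26 without both replicate 3 arrays, 11 with quantile normalization, 4 with the filter at the median, 1 with an offset of 16, 0 in the methods' t-test (185 at the thresholds of the methods) and 1 to 15 with single arrays left out, namely 1 without Meis1cko replicate 1 or control replicate 1, 2 without control replicate 2, 3 without Meis1cko replicate 2, 4 without control replicate 3 and 15 without Meis1cko replicate 3. Of the listed genes, 0 passed in limma, 2 with the replicate block (Pmp2 and Lum) and 1 with the mean over probe sets (Lum). The pairing changed no other call of the listed genes at the adjusted threshold, and at the unadjusted one it raised their number from 10 to 17 of 114, the 10 included. The cause of these shifts was not tested. For the correlation, leaving out arrays and subtracting replicate-number means were chosen after seeing the data, as were all alternatives for the listed genes and Meis1 and the myelin level without Pmp2.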
